A study of Mus musculus with 23 samples.

Results

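Potassium channel genes were followed through a series of mouse libraries made from small amounts of material. All rows of the deposited gene count table whose symbol is Kcn, one or more lower-case letters and a closing number were taken, which gave 92 of the 22488 genes in the table. By symbol prefix, 40 were voltage-gated pore subunits (Kcna, Kcnb, Kcnc, Kcnd, Kcnf, Kcng, Kcnh, Kcnq, Kcns and Kcnv), 15 were inward rectifiers (Kcnj), 14 were tandem-pore channels (Kcnk), 8 were calcium- or sodium-activated channels (Kcnma, Kcnn, Kcnt and Kcnu) and 15 were auxiliary subunits (Kcnab, Kcne, Kcnip and Kcnmb). Kcnrg and Kcne1l, whose symbols do not end in that way, were not members. Classes follow the prefix alone, and Kcnu1 is counted as calcium- or sodium-activated although neither ion is known to open it. The series tested how little input the EASY-RNASeq protocol needs: cDNA primed with oligo-dT was cut and tagged by the Tn5 transposase. It holds 23 libraries. CD3+ T cells of the spleen were used at 100, 500, 1000 and 10000 cells, with 3 libraries each. Diluted RNA was used at 0.1 ng, with 2 libraries, and at 0.5, 1 and 5 ng, with 3 libraries each. Every library is labelled strain C57 and an age of 6 to 18 weeks, with no treatment or altered gene. The design text gives the diluted RNA as extracted from spleen, whereas the sample labels name the cell line raw 264.7, a macrophage line, so it is called diluted RNA here. Nothing in the labels says that replicates came from separate animals, so the p-values below measure the spread between libraries, which may be technical.

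Potassium channels let potassium leave the cell along its gradient and so hold the membrane voltage negative. In lymphocytes this keeps up the driving force for calcium entry through Orai channels after antigen receptor signalling. Kcna3, a voltage-gated channel, and Kcnn4, a channel opened by calcium-bound calmodulin, are the best known potassium channels of T cells. Kcnab2 is a cytoplasmic beta subunit that binds channels of the Kcna family. Many of the other members are best known from neurons, heart, kidney or glia.

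The coding sequence of the selectivity filter shows what the pore-forming members share. It was searched for as an in-frame stretch of 15 bases with the letters ACNNNNGGNTANGGN, where the codon beginning TA was TAC or TAT, or ACNNNNGGNTTNGGN, where that codon gives phenylalanine or leucine in place of tyrosine. Both read threonine, any residue, glycine, the variable residue and glycine, and neither was searched on the other strand because the reading frame fixes the strand. In GENCODE M21 coding sequences, 66 of the 77 pore-forming members held it, against 0 of the 15 auxiliary members and 211 of 21470 other coding genes (0.983%). By class these were 33 of 40 voltage-gated, 14 of 15 inward rectifiers, 14 of 14 tandem-pore channels, 11 of them with 2 such stretches, and 5 of 8 calcium- or sodium-activated channels. The members without these letters were Kcnh1, Kcnh2, Kcnh3, Kcnh4, Kcnh6, Kcnh7, Kcnh8, Kcnj14, Kcnn1, Kcnn2 and Kcnn3. Several members that lead the results below are shown 5′ to 3′ on the coding strand, with the 15 bases of the signature in capitals.
Kcna3: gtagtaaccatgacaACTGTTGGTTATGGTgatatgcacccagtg
Kcna2: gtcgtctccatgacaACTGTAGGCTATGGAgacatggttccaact
Kcnn4: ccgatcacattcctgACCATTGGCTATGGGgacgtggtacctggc
Kcnk6: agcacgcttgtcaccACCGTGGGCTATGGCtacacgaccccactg
Kcnk5, first pore: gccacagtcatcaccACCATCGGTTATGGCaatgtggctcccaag
Kcnk5, second pore: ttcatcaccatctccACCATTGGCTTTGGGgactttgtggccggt
The stretch covers coding bases 1174 to 1218 of Kcna3 and 727 to 771 of Kcnn4. The first stretch of Kcnk5 lies at coding bases 277 to 321 and carries the tyrosine form, and the second lies at 592 to 636 and carries the other form.

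The promoters of Kcnn4 and Kcna3, the channels best known from T cells, are shown because both genes were above background in all 23 libraries. The windows run from 250 bases before to 50 after the annotated start and come from the RefSeq table for GRCm38.p6, which held 67 of the 92 members in 92 windows. The core bound by RUNX factors was searched as TGTGGT and, on the other strand, ACCACA, and each match is in capitals.
Kcnn4, chr7:24370013-24370312, plus strand: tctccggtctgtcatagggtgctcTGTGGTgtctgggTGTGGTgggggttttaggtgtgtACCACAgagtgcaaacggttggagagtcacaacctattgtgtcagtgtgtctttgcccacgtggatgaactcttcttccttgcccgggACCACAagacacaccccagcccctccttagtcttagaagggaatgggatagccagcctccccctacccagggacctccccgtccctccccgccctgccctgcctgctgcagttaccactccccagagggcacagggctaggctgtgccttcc
Kcna3, chr3:107035912-107036211, plus strand: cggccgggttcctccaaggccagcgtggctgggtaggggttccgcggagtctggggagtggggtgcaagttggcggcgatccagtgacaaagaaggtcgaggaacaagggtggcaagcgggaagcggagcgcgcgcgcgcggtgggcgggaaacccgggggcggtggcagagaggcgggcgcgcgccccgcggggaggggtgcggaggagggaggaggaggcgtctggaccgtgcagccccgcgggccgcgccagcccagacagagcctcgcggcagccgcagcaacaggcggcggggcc
The Kcnn4 window held 4 matches and 6 CG dinucleotides at 59.7% GC. The Kcna3 window held 0 matches and 37 CG dinucleotides at 75.0% GC. Of the 32851 windows in the table, 16.8% held at least 1 match and 15 (0.0457%) held 4 or more, and 11 of the members' 92 windows (12%) held at least 1. The ETS core GGAAGT, searched on both strands, was in 23.8% of all windows and in 16.3% of the members' windows. A match is a description of the letters and not a site.

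Library totals ran from 1849181 to 3760980 counts in T cells and from 1737067 to 7908638 in diluted RNA. The summed level of the 10 T cell markers was 4124 to 4845 CPM (a gene's counts over the library total, scaled to 1e6) in 11 of the 12 T cell libraries and 1029 to 1343 in diluted RNA. The 8 B cell markers summed to 25890 to 36990 CPM in diluted RNA against 918 to 2559 in those 11 T cell libraries, and the 8 macrophage and monocyte markers to 2140 to 2823 against 32.8 to 149.9. The label of a macrophage line thus went against the B cell markers. T cell replicate 3 at 100 cells stood apart: its T cell markers summed to 2687 CPM, its B cell markers to 14020, its macrophage and monocyte markers to 1148, its neutrophil markers to 1793 (11.7 to 29.1 in the other T cell libraries, 3128 to 4664 in diluted RNA) and its Y-linked genes to 184 (at most 4.33 in the other T cell libraries, 287 to 456 in diluted RNA). Calls at 100 cells that changed without it are therefore given without it as well. Outside that library the Y-linked sums separated T cells from diluted RNA. In comparisons of T cells with RNA, a difference in the sex of the source therefore cannot be told apart from one of material. In none of the libraries was the neuron marker sum above 35.1 CPM, and 3 or more of its 6 markers were at 0 in at least 1 library of each material.

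To compare genes with each other, the level of a gene was its CPM per kilobase (kb) of exon. Since many members are not known from spleen, each level was set against olfactory receptor genes, which serve here as genes that spleen cells are not known to use: a member stood above the Olfr level when it exceeded the 95th percentile of the 1134 Olfr genes in every library of a group. That percentile differed between groups. It was 3.74 ± 0.922 CPM per kb (SD, n = 3) at 100 cells, 2.73 ± 0.0867 at 500, 2.06 ± 0.0443 at 1000 and 1.64 ± 0.0532 at 10000. In diluted RNA it was 1.94 ± 0.372 (n = 2) at 0.1 ng, 0.358 ± 0.0144 at 0.5 ng, 0.251 ± 0.0352 at 1 ng and 0.223 ± 0.0256 at 5 ng. Counts of members above the level are therefore not on one scale across groups. At 10000 cells, 89.4% of Olfr genes and 95.7% of the members had a count, whereas at 5 ng 24.4% of Olfr genes and 87.0% of the members had one.

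Only 3 members, Kcnn4, Kcnab2 and Kcna3, were above the Olfr level in all 23 libraries, as were 24.1% of all genes with a length and 0 of the 1134 Olfr genes. The 12 T cell libraries alone placed the same 3 above it, against 26.1% of all genes. No other member was above it at 100, 500 or 1000 cells, where 27.2%, 33.7% and 37.1% of all genes were, and without replicate 3 at 100 cells the same 3 were above it there. At 10000 cells 8 members were above it (40.5% of all genes): Kcnn4, Kcnab2, Kcna3, Kcnh2, Kcna2, Kcnk5, Kcnc1 and Kcnh3. The share of members above the level was thus below that of all genes in each T cell group. Of these 8, 5 were voltage-gated, 1 each was auxiliary, calcium-activated and tandem-pore, and none of the 15 inward rectifiers was among them. The other 84 members had group means from 0.0994 to 2.26 CPM per kb with a median of 0.651, beside an Olfr median of 0.587 ± 0.00686 (SD, n = 3). The lowest library of the 8 was Kcnk5 in replicate 2, at 1.62 CPM per kb, and just outside stood Kcnk7, a tandem-pore subunit, with 0.356, 2.29 and 4.13, and Kcnj8, an inward rectifier, with 1.53, 2.38 and 1.38.

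In diluted RNA 12 members were above the Olfr level at 0.1 ng (36.7% of all genes), 18 at 0.5 ng (51.1%), 28 at 1 ng (53.9%) and 38 at 5 ng (58.1%). All 11 of these libraries placed 9 members above it, against 35.8% of all genes: Kcnab2, Kcnn4, Kcnk5, Kcna3, Kcnj10, Kcnk6, Kcnj16, Kcna2 and Kcnj8. At 5 ng the 38 comprised 17 voltage-gated, 7 auxiliary, 6 inward rectifier, 5 tandem-pore and 3 calcium- or sodium-activated members. The sets at 10000 cells and 5 ng shared 7 members, 87.5% of the 8 and 18.4% of the 38, and Kcnh2 was the 1 of the 8 outside the 5 ng set. It was above the Olfr level in 2 of the 3 libraries at 5 ng and in all 3 at 1 ng. At 0.1, 0.5, 1 and 5 ng, 7, 5, 5 and 5 Olfr genes met the same rule, and at 10000 cells 0 did.

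**Figure D1:**
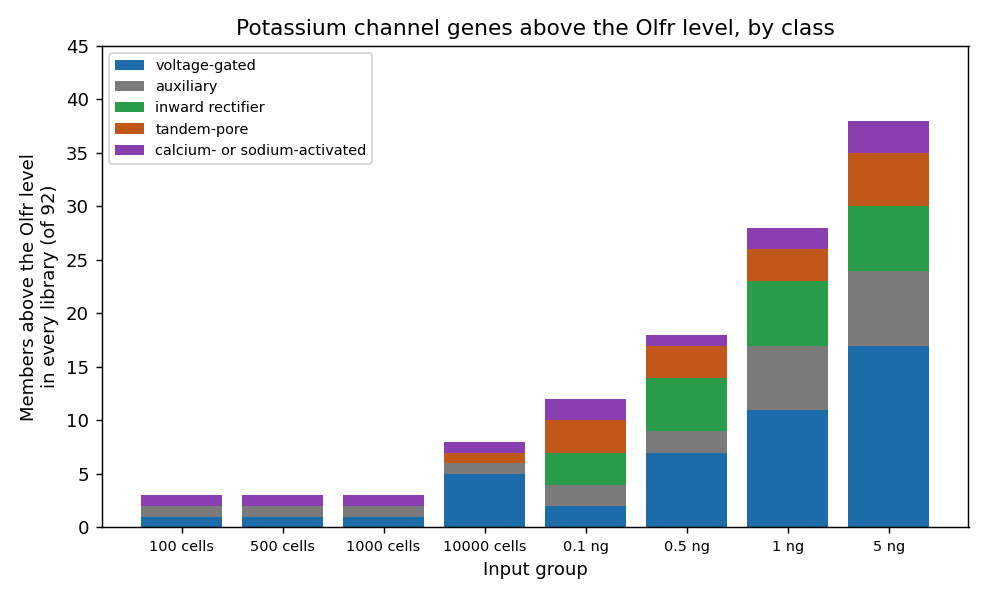
Number of the 92 potassium channel genes above the Olfr level in every library of a group (vertical axis), for 4 T cell inputs and 4 RNA inputs (horizontal axis), stacked by class. The bars stand at 3, 3, 3 and 8 members in T cells and 12, 18, 28 and 38 in diluted RNA, and the level itself differed between groups.

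Kcnn4 had the highest mean CPM per kb of the members at 10000 cells, although Kcnab2 was above it in replicate 2 and in mean CPM not divided by length (305.5 ± 23.3 against 295.3 ± 7.25, SD, n = 3 each). At 10000 cells its 3 libraries held 59.4, 57.1 and 56.8 CPM per kb, and at 5 ng they held 23.4, 24.1 and 21.9. The groups did not overlap, with means of 57.7 ± 1.42 and 23.1 ± 1.12 (SD, n = 3 each). How many of all genes did not overlap between these groups was not counted. At 100 cells it stood at 45.7, 40.0 and 40.3, which is above every RNA library but 1, the first at 0.1 ng with 48.0.

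Kcnab2, the beta subunit, was close to it and had the highest mean at 5 ng. It held 55.2, 58.7 and 50.4 CPM per kb at 10000 cells and 26.3, 27.3 and 26.9 at 5 ng, again without overlap. The gene model Gm16334 overlaps 2.24% of its exon length, and whether counting used strand is not given in the sources used here.

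Kcna3 held 18.8, 20.1 and 17.6 CPM per kb at 10000 cells and 11.9, 10.8 and 8.18 at 5 ng. Over all libraries it ran between 8.39 and 20.1 in T cells and between 7.26 and 14.6 in diluted RNA, so its ranges overlapped across inputs. The lowest T cell value, 8.39, came from replicate 3 at 100 cells, which also held the lowest Kcnab2 of the T cells (36.8).

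Together these 3 genes made up 66.2 ± 1.01% (SD, n = 3) of the summed level of all 92 members at 10000 cells and 48.3 ± 1.16% at 5 ng. The summed level itself was 198 ± 6.63 CPM per kb at 10000 cells and 125 ± 3.78 at 5 ng. By class, calcium- or sodium-activated channels held 31.8 ± 1.23% of that sum at 10000 cells and 19.8 ± 0.350% at 5 ng. Inward rectifiers held 4.73 ± 0.546% and 16.7 ± 0.401%, and tandem-pore channels 5.08 ± 1.27% and 16.3 ± 1.14%, so the diluted RNA drew more of its summed signal from these classes. Their median members went the other way. For inward rectifiers the median was 0.649 CPM per kb at 10000 cells and 0.361 at 5 ng. For tandem-pore channels it was 0.544 and 0.175, so these shares do not describe a typical member.

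**Figure D2:**
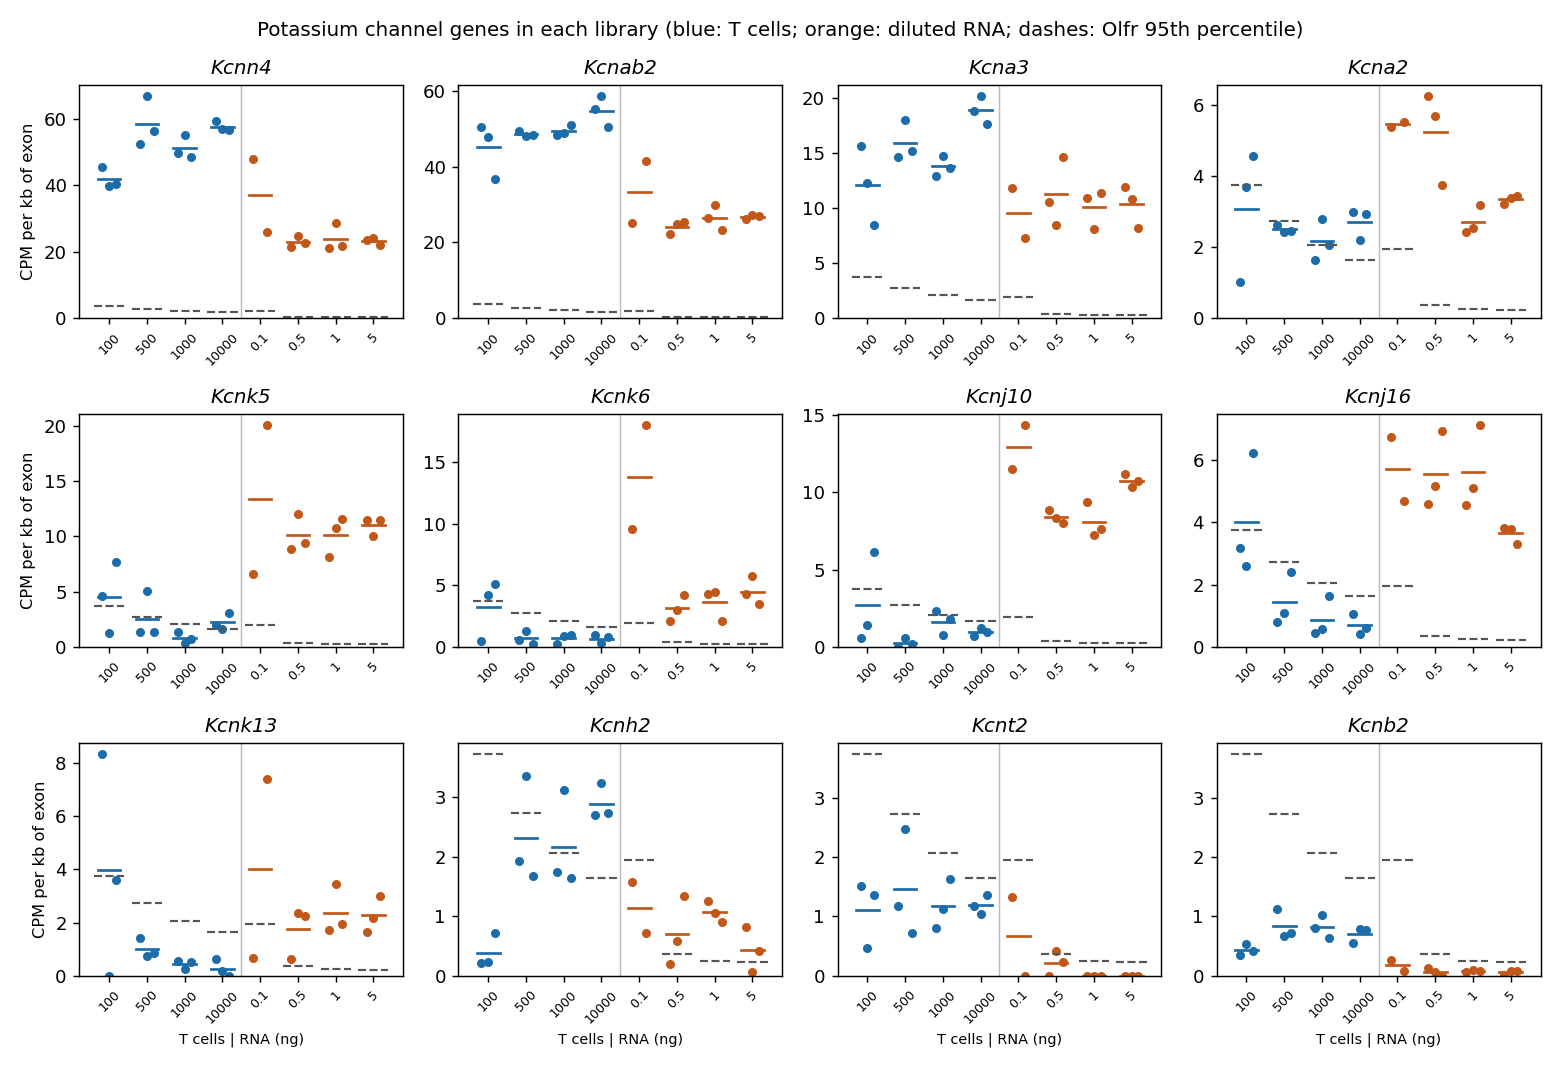
Level (CPM per kb of exon, vertical axis) of 12 potassium channel genes in each of 23 libraries, by number of T cells (blue) and ng of RNA (orange); points are libraries, solid bars group means and dashed bars the mean Olfr 95th percentile of the group. Kcnn4, Kcnab2 and Kcna3 lie above the dashed bars in all groups, Kcnj10 lies at 7.27 or more in diluted RNA, and Kcnt2 and Kcnb2 stay below the dashed bars of the T cells.

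The largest inputs gave the comparison of T cells with diluted RNA its greatest depth. Tested with edgeR (quasi-likelihood F, Benjamini-Hochberg over the 14425 genes that entered), 36 of the 92 members differed between 10000 cells and 5 ng, 29 higher and 7 lower in T cells. Another 19 were tested and did not pass, and 37 were too low to be tested. Of all genes tested, 56% differed, 28.7% higher and 27.3% lower. The median log2 change was 1.19 over the 55 tested members, 0.03 over all genes and 4.86 over the 213 tested Olfr genes, of which 208 were higher, or 4.57 with the 72 Olfr genes at 0 counts in RNA set at their bounds. The filter keeps a gene that is high enough in either group alone. Low members that entered only through the group where they were higher were thus favoured to differ. Some, such as Kcnh4 and Kcnh6, still did not pass. Tests of such members are descriptions. In bulk libraries such as these, fewer cells of a type and less RNA per cell cannot be told apart. Of the 29 higher members only 6 stood above the Olfr level at 10000 cells (Kcnn4, Kcnab2, Kcna3, Kcnh2, Kcnc1 and Kcnh3). All 7 lower members stood above it at 5 ng. The level was 1.64 CPM per kb at 10000 cells and 0.223 at 5 ng, so these counts are not on one scale.

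Kcnn4 was higher in T cells by 1.21 on the log2 scale (SE 0.0679, adjusted p = 5.15e-24 by edgeR), Kcnab2 by 0.92 (SE 0.0663, adjusted p = 5.62e-19) and Kcna3 by 0.77 (SE 0.183, adjusted p = 0.000287). Kcnh2, a voltage-gated channel of the ether-à-go-go family best known for cardiac repolarisation, held 2.71, 3.24 and 2.73 CPM per kb at 10000 cells and 0.815, 0.0551 and 0.418 at 5 ng, a log2 difference of 2.65 (SE 0.448, adjusted p = 8.36e-07). Kcnh3, of the same family and best known from the brain, held 1.94, 1.68 and 1.79 at 10000 cells and 0.711, 0.255 and 0.549 at 5 ng, a log2 difference of 1.72 (SE 0.420, adjusted p = 0.000372). Kcnc1, known from fast-firing neurons, held 2.06, 2.62 and 1.74 at 10000 cells and 0.711, 1.00 and 1.31 at 5 ng, a log2 difference of 0.97 (SE 0.258, adjusted p = 0.00105). In each of these 6 genes, all picked as past the threshold, the 3 T cell libraries lay above the 3 RNA libraries. The share of all genes separated in this way was not counted. Kcnh2, Kcnc1 and Kcnh3 held at most 3.24 CPM per kb in T cells, beside an Olfr percentile of 1.64 there. Kcnh2 and Kcnh3 were too low at 5 ng to enter the test without the T cells, so their tests are descriptions.

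The 8 members with the largest rise in T cells were none of those 6, and none of them stood above the Olfr level at 10000 cells. Kcnt2, a sodium-activated channel, had 87 counts over the 10000-cell libraries and 0 over the 5 ng libraries, at least 60.8-fold higher as CPM when the RNA group is set at a floor of 3 counts in all. In CPM per kb it held 1.17, 1.04 and 1.36 at 10000 cells, below the Olfr percentile there. Kcnv2, a silent voltage-gated subunit, had 53 and 2 counts, a ratio of 55.5. Its 95% counting interval, which takes counts as independent, ran from 14.6 to 470. Kcnb2, a delayed rectifier, held 0.552, 0.782 and 0.775 at 10000 cells and 0.0193, 0.0704 and 0.0834 at 5 ng, a fitted log2 difference of 3.44. The other fitted log2 differences, given like that of Kcnb2 as descriptions because such low members entered the test through the T cells, were 4.06 for Kcnu1, a testis channel, 3.61 for the silent subunit Kcnv1, 3.56 for Kcnc2, 3.51 for the large-conductance channel Kcnma1 and 3.19 for Kcnq3, a subunit of the neuronal M current. By class, the 29 higher members were 16 voltage-gated, 6 calcium- or sodium-activated, 4 auxiliary, 2 tandem-pore (Kcnk9 and Kcnk10) and 1 inward rectifier (Kcnj15). Summed neuron markers were at 18.2 to 27.3 CPM at 10000 cells and 4.54 to 5.06 at 5 ng, and the 6 heart and skeletal muscle markers at 132.7 to 150.8 and 48.4 to 64.1. Both, and the Olfr genes, moved in the same direction as these members, and their part in the result was not tested.

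**Figure D3:**
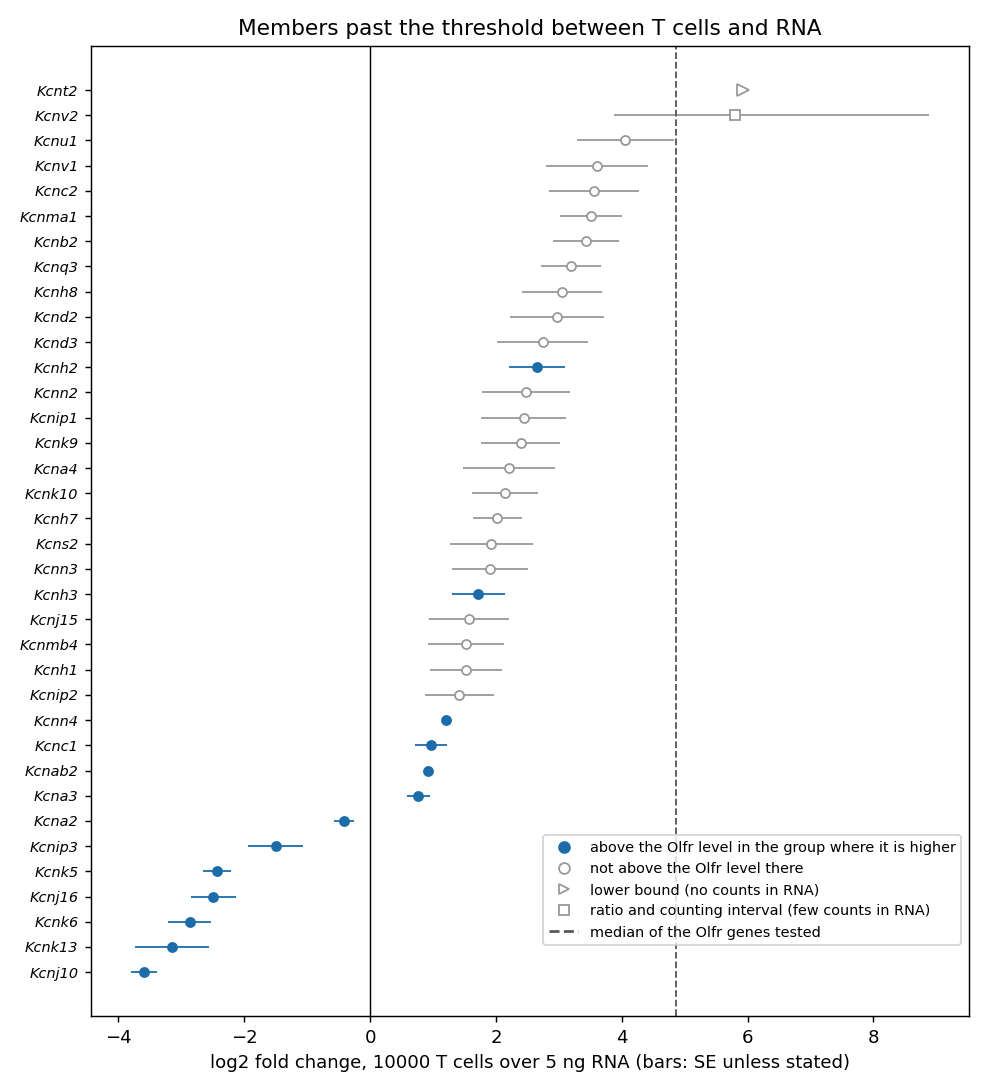
Log2 fold change from 5 ng RNA to 10000 T cells (horizontal axis) of the 36 potassium channel genes past the threshold (vertical axis); bars are standard errors, filled points stood above the Olfr level in the group where they were higher, the triangle is a lower bound, the square a count ratio with its counting interval, and the dashed line the fitted median of the Olfr genes tested, 4.86. The 23 open symbols, all higher in T cells, were not above the Olfr level there, which was higher than the level at 5 ng.

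The members that were lower in T cells were mostly inward rectifiers and tandem-pore channels. Kcnj10, an inward rectifier best known from glia, held 0.722, 1.22 and 0.924 CPM per kb at 10000 cells and 11.2, 10.3 and 10.8 at 5 ng. The log2 difference was -3.59 (SE 0.208, adjusted p = 2.24e-23 by edgeR), which was the largest fall of any member. Kcnj16, an inward rectifier subunit that assembles with Kcnj10, held 1.06, 0.420 and 0.598 at 10000 cells against 3.83, 3.80 and 3.31 at 5 ng, a log2 difference of -2.49 (SE 0.358, adjusted p = 1.87e-08). All RNA libraries of both genes were above all T cell libraries of the compared groups, again with no share of all genes counted. Kcnj16 was too low in T cells to enter the test without the RNA, so its test is a description.

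Among the tandem-pore channels, which carry leak currents, Kcnk5 held 1.97, 1.62 and 3.02 CPM per kb at 10000 cells and 11.5, 10.0 and 11.5 at 5 ng, a log2 difference of -2.44 (SE 0.222, adjusted p = 8.29e-15 by edgeR). Kcnk6 held 0.941, 0.266 and 0.779 against 4.26, 5.72 and 3.47, a log2 difference of -2.87 (SE 0.342, adjusted p = 1.03e-10). Kcnk13 held 0.627, 0.177 and 0 against 1.64, 2.19 and 3.01, a log2 difference of -3.15 (SE 0.592, adjusted p = 6.72e-06). In these 3 genes, also picked as past the threshold, the 3 T cell libraries lay below the 3 RNA libraries, with no share of all genes counted. Kcnk6 and Kcnk13 were too low in T cells to enter the test without the RNA, so their tests are descriptions.

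Kcnip3, a calcium-binding protein of the Kcnd channels, held 0.865, 0.777 and 0.663 CPM per kb at 10000 cells against 2.1, 1.73 and 2.25 at 5 ng, a log2 difference of -1.50 (SE 0.440, adjusted p = 0.00287 by edgeR). Kcna2, a voltage-gated relative of Kcna3, was only slightly lower: 2.97, 2.20 and 2.94 against 3.22, 3.37 and 3.43, a log2 difference of -0.42 (SE 0.158, adjusted p = 0.0208). That call was lost with library sizes in place of TMM (-0.31, adjusted p = 0.0937), without replicate 2 of the T cells (-0.33, adjusted p = 0.0941) and without replicate 3 of the RNA (-0.41, adjusted p = 0.0562). At 5 ng the level of Kcna3 varied more between libraries (10.3 ± 1.92 CPM per kb, SD, n = 3) than that of Kcna2 (3.34 ± 0.111). The B cell, macrophage and neutrophil markers given above were higher in diluted RNA along with these 7 members. So were the 7 erythroid markers, at 4066 to 4093 CPM at 5 ng against 49.1 to 56.0 at 10000 cells, and the 5 platelet markers, at 63.6 to 73.4 against 9.92 to 14.2, and their part in the result was not tested.

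Several members that were above the Olfr level at 5 ng did not differ beyond the spread between libraries. Kcnj8, the pore of a metabolically gated inward rectifier, held 1.53, 2.38 and 1.38 CPM per kb at 10000 cells and 1.32, 2.20 and 1.69 at 5 ng (log2 difference -0.09, SE 0.460, adjusted p = 0.889 by edgeR). Kcnq5, a voltage-gated channel, gave -0.45 (SE 0.292, adjusted p = 0.190), Kcnj2, the inward rectifier known from heart and muscle, gave -0.79 (SE 0.444, adjusted p = 0.126) and Kcnj9 gave -0.50 (SE 0.525, adjusted p = 0.438). Kcnk7 gave 1.22 (SE 0.644, adjusted p = 0.102) with the T cell libraries far apart, and passed without replicate 1 of the T cells, as Kcnq5 did without replicate 2. Kcnq1 gave 0.17 (adjusted p = 0.832). Kcna5, a close relative of Kcna3, had 7 counts over the 10000-cell libraries and 6 over the 5 ng libraries and was not tested.

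**Figure D4:**
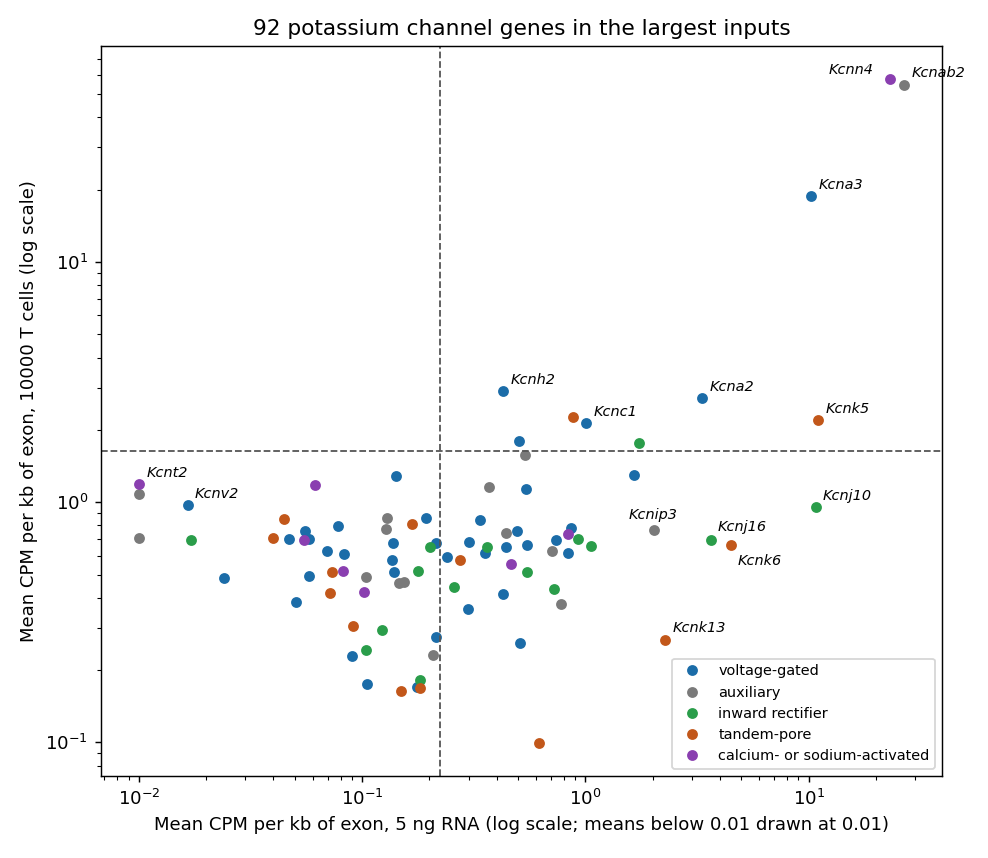
Mean level of the 92 potassium channel genes in 3 libraries of 10000 T cells (vertical axis) against 3 libraries of 5 ng RNA (horizontal axis), in CPM per kb of exon on log axes, coloured by class; dashed lines are the mean Olfr 95th percentiles, 1.64 and 0.223. Kcnn4, Kcnab2 and Kcna3 lie top right, Kcnj10, Kcnj16, Kcnk6, Kcnk13 and Kcnip3 lie right of the vertical line and below the horizontal one.

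The same comparison at smaller inputs used other libraries. At 1000 cells against 1 ng, 38 members were tested and 18 were higher and 6 lower in T cells, where 40% of all genes differed (20.1% higher, 20% lower). At 500 cells against 0.5 ng, 37 were tested and 15 were higher and 7 lower, where 37.1% of all genes differed (19% higher, 18.1% lower). DESeq2 called 35 members in that comparison, 28 higher and 7 lower, and its share of all genes is not given here. Of the 29 members higher at the largest inputs, 17 were also higher at 1000 cells and 13 at 500 cells, and 10 in all 3 comparisons: Kcnn4, Kcnab2, Kcnb2, Kcnt2, Kcnh7, Kcnn3, Kcnd3, Kcnma1, Kcnq3 and Kcnip2. Of the higher members, 2 of 18 at 1000 cells and 2 of 15 at 500 cells stood above the Olfr level there. Low members could enter the test through the T cells alone, which was not counted per member, so the repeat is a description. Also, 14 of the 29 were too low to be tested in at least 1 of the other comparisons. Of the 7 lower members, 4 were lower in all 3 comparisons: Kcnj10, Kcnj16, Kcnk5 and Kcnk6. How often calls over all genes repeated was not counted, so the repeats of members have no background to be set against.

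Kcnn4 was higher by 1.09 on the log2 scale (SE 0.119, adjusted p = 6.14e-08 by edgeR) at 1000 cells against 1 ng and by 1.35 (SE 0.125, adjusted p = 1.31e-08) at 500 cells against 0.5 ng. Kcnab2 was higher by 0.89 and 1.00 in the same comparisons (adjusted p = 2.46e-07 and 4.66e-07). Kcnh2 did not pass in either, with 1.00 (SE 0.512, adjusted p = 0.126 by edgeR) and 1.7 (SE 0.731, adjusted p = 0.0737), and the second passed by DESeq2 and without replicate 3 of the RNA (2.50, adjusted p = 0.0290). Kcna3 did not pass in either, with 0.44 (SE 0.282, adjusted p = 0.232) and 0.50 (SE 0.328, adjusted p = 0.257). At 1000 cells its libraries held 12.9, 14.7 and 13.7 CPM per kb, and at 1 ng 10.8, 8.10 and 11.3. Kcnj10 gave -2.34 and -4.99 (adjusted p = 2.66e-06 and 1.38e-07), with 2.35, 0.749 and 1.77 at 1000 cells, 0, 0.575 and 0.166 at 500 cells, 9.41, 7.27 and 7.62 at 1 ng and 8.86, 8.35 and 8.04 at 0.5 ng. Whether a difference between T cells and RNA changed with input was not tested.

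At 100 cells against 0.1 ng, 43 members were tested and none passed by edgeR, where 0.0535% of all genes did. At an unadjusted p under 0.05 there were 5 members, 3 higher and 2 lower, beside 2047 of 13073 genes, 1307 higher and 740 lower. DESeq2 called 0 members. Kcnn4 gave 0.20 (SE 0.320, adjusted p = 0.826), Kcnab2 0.46 (SE 0.314, adjusted p = 0.516), Kcna3 0.35 (SE 0.748, adjusted p = 0.875) and Kcnj10 -2.21 (SE 0.856, adjusted p = 0.275). Kcnj10 held 0.577, 1.40 and 6.15 CPM per kb at 100 cells, the highest value being that of replicate 3, whose B cell and macrophage markers stood apart, and without that library it was called lower, with -3.67 (adjusted p = 0.0391). Without it Kcnn4 gave 0.24 (adjusted p = 0.777 by edgeR), Kcnab2 0.59 (adjusted p = 0.314) and Kcna3 0.57 (adjusted p = 0.791). Replicate 3 also held the highest Kcnj16 (6.21 against 3.17 and 2.61), Kcnk5 (7.66 against 4.58 and 1.27) and Kcnk6 (5.12 against 0.501 and 4.17) of that group. Kcnk13, at 8.35, 0 and 3.59, was highest in replicate 1.

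Within the T cells, the question was whether smaller inputs gave the same levels as 10000 cells. By edgeR none of the members passed at 100 cells (48 tested), 500 cells (41 tested) or 1000 cells (46 tested), where 0%, 3.23% and 3.27% of all genes differed. At an unadjusted p under 0.05 there were 8, 6 and 3 members, beside 1691 of 14099, 2273 of 13674 and 2071 of 13415 genes. DESeq2 called 2, 1 and 0 members. The 2 called by DESeq2 at 100 cells were Kcnh2 and Kcnj16, and the 1 at 500 cells was Kcnc1. These 3 comparisons share the 10000-cell libraries. Kcnn4 gave -0.47 (SE 0.125, adjusted p = 0.207) at 100 cells, 0.01 (SE 0.0947, adjusted p = 0.961) at 500 and -0.16 (SE 0.0833, adjusted p = 0.370) at 1000. Kcna3 gave -0.66 (SE 0.337, adjusted p = 0.478), -0.25 (SE 0.238, adjusted p = 0.645) and -0.44 (SE 0.228, adjusted p = 0.362). Kcnh2 held 0.215, 0.223 and 0.713 CPM per kb at 100 cells, all below its 10000-cell libraries, with a log2 difference of -2.81 (SE 0.702, adjusted p = 0.175). Without replicate 3 of the 100-cell group, which stood apart, Kcnh2 was called lower by edgeR (-3.70, adjusted p = 0.0347), while Kcnn4 gave -0.46 (adjusted p = 0.0633) and Kcna3 -0.47 (adjusted p = 0.387).

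Within the diluted RNA, 1 ng against 5 ng gave none of 30 members by edgeR, where 0.0238% of all genes differed. At an unadjusted p under 0.05 there were 5 of the 30, beside 1318 of 12616 genes, and DESeq2 called 0 members. At 0.5 ng against 5 ng, 2 of 30 members were higher, where 5.09% of all genes differed and 2.87% were higher. Kcna2 was among them (log2 difference 0.64, SE 0.173, adjusted p = 0.0344), at 6.26, 5.68 and 3.74 CPM per kb at 0.5 ng. At 0.1 ng against 5 ng, 6 of 52 members differed, 4 higher and 2 lower, where 11.2% of all genes differed (4.69% higher, 6.55% lower). The 4 higher were Kcnu1 (4.99 on the log2 scale), Kcnma1 (4.62), Kcnmb1 (3.93) and Kcnmb3 (3.18), the last 2 of them beta subunits of the Kcnma1 channel. Only Kcnmb3 stood above the Olfr level at 0.1 ng. Kcnu1, Kcnma1 and Kcnmb1 did not and entered the test through the 0.1 ng libraries, so their changes are descriptions. The 2 lower had 0 counts at 0.1 ng: Kcnj2 had 128 at 5 ng and was at least 7.10-fold lower, and the sodium-activated channel Kcnt1 had 97 and was at least 5.38-fold lower. The 17 Olfr genes called higher among the 39 tested were higher along with the 4, and their part in the result was not tested. All calls at 0.5 ng were lost without any 1 of the 5 ng libraries, as were all calls at 0.1 ng.

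Genes that move or sense other ions beside these channels were taken as a list of 41, and 40 were tested between 10000 cells and 5 ng. By edgeR 13 were higher in T cells and 22 lower, where 28.7% and 27.3% of all genes were, with a median log2 change of -0.25 beside 0.03 over all genes. Stim1, the calcium sensor of the endoplasmic reticulum, had a mean of 231 ± 17.1 CPM (SD, n = 3) at 10000 cells and 148 ± 3.27 at 5 ng and was higher by 0.53 (SE 0.0705, adjusted p = 1.98e-09). Orai1, the pore it opens, had 43.0 ± 3.38 and 34.7 ± 2.23 CPM and did not pass (0.20, SE 0.151, adjusted p = 0.273). Itpr2, a calcium release channel, was higher by 0.35, Trpm7, a cation channel with a kinase domain, by 0.29, the transcription factor Nfatc2 by 0.35, the ATP-gated channel P2rx7 by 0.61 and the volume-regulated anion channel subunit Lrrc8a by 0.63 (SE 0.236, adjusted p = 0.0188). Of these, Itpr2, Nfatc2 and Lrrc8a did not pass at 1000 cells against 1 ng or at 500 cells against 0.5 ng (Nfatc2 gave -0.16 and -0.06), Trpm7 did not pass in the first and Stim1 in the second. These genes were preset, and other genes of the list rose more. Chosen after their values were seen, these were the potassium-chloride cotransporter Slc12a7 (2.17), the sodium pump subunits Atp1b1 (1.98) and Atp1b3 (1.08), the calcium channel Orai2 (1.27) and the cation channel Trpm4 (1.16), which did not pass at 1000 or 500 cells. Hvcn1, the voltage-gated proton channel of B cells and phagocytes, had 46.4 ± 8.03 CPM at 10000 cells and 142 ± 4.78 at 5 ng and was lower in T cells, with a log2 difference of -1.73 (SE 0.105, adjusted p = 2.26e-22). Slc12a2, a cotransporter that brings sodium, potassium and chloride into the cell, had 27.3 ± 6.02 and 82.0 ± 2.84 CPM and was lower too, with -1.70 (SE 0.139, adjusted p = 1.06e-16). At 1000 cells against 1 ng 7 of the list were higher and 19 lower, where 20.1% and 20% of all genes were, and at 500 cells against 0.5 ng 9 and 21, where 19% and 18.1% were, while none passed at 100 cells against 0.1 ng.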

How the data were processed

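Potassium channel genes were analysed in 23 libraries from a table of counts per gene that the authors deposited. Per the submitters' processing notes, HISAT2 2.1.0, featureCounts and mm8 were used, and strand setting, annotation and filters are not given in the sources used here. The deposited counts are whole numbers with no normalization, and 57.9% to 70.7% of the nonzero counts in a library are even. CPM is a count over the column total. Levels between genes were divided by exon length from GENCODE M21 (GRCm38), which had 22459 of 22488 symbols (99.87%). The median exon length was 4239.5 bases for members and 2987 for Olfr genes, and priming with oligo-dT means that counts need not scale with length.

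Pairs of groups were compared in 10 fits with edgeR 4.0.16 (R 4.3.3): TMM, filterByExpr, quasi-likelihood test, Benjamini-Hochberg adjustment over all genes tested, threshold 0.05. The fits were tested on simulated data. The standard error is the log2 change over the square root of F. Ratios with few counts carry counting intervals (95%, exact), which, like the floor of 3 counts over a group, cover counting error only. Both take counts as independent, which the excess of even counts puts in doubt. The intervals may therefore be too narrow and the bounds too high. Replicate libraries differed by more than the sampling noise of independent counts, with a chi-square per degree of freedom of at least 3.17. Alternatives were DESeq2 1.42.0, its size factors, no filter, a replicate block, leaving out each library, other Olfr percentiles and CPM without length, and, chosen after seeing the data, library sizes without TMM.

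Named are the members above the Olfr level at 10000 cells or 5 ng (up to 16 each), the 8 largest rises and falls, members that differed between inputs, and 10 preset genes. Members and lists were chosen with earlier results of these data known. Some items are not reported here.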

Additional observations from a re-analysis of the deposited data

How the results depend on the processing

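The count of members past the threshold stayed within 1.5 times for 10000 cells against 5 ng (34 to 38 when a library was left out) and 1000 cells against 1 ng (24 to 29). DESeq2 called 35 at 500 cells against 0.5 ng (17 to 25 when a library was left out), 2 at 100 against 10000 cells, 1 at 500 against 10000 cells and 12 at 0.1 against 5 ng. Without the filter on low counts there was 1 call each at 100 cells against 0.1 ng and 500 against 10000 cells. Shares of all genes called under the alternatives are not given here. Same-numbered libraries did not deviate together (0 of 28 correlations over 0.1), and the replicate block gave 2 calls, both lower, at 100 cells against 0.1 ng (Kcnj10, -3.76, and Kcnk6, -3.01), 1 at 500 against 10000 cells and 0 at 0.1 against 5 ng. When a library was left out the counts ran from 0 to 1 at 100 cells against 0.1 ng, 0 to 1 at 100 and at 500 against 10000 cells, 0 to 27 at 0.1 against 5 ng and 0 to 2 at 0.5 against 5 ng. The call at 500 cells was Kcnc1, lower without replicate 3. At 0.1 ng leaving out replicate 1 or 2 gave 22 and 27. Each leaves 1 library there, which is assumed to vary like the 5 ng libraries, and calls such as Kcnc1 (-1.54 and 2.00) differed in sign. Library sizes without TMM moved the median of all genes at the largest inputs from 0.03 to 0.14 and gave 30 members higher and 6 lower. With CPM in place of CPM per kb, 5, 9, 9 and 14 members were above the Olfr level at 100, 500, 1000 and 10000 cells. With the 99th percentile 4 were above it at 10000 cells and 11, 13 and 19 at 0.5, 1 and 5 ng. With the Olfr median, 28, 24, 25 and 25 were above it in T cells and 37, 31, 44 and 67 in diluted RNA. Leaving out a library gave 3 to 5 at 100 cells and 16 to 25 at 0.1 ng. Kcnj8 changed sign to 0.0251 with library sizes, to 0.03 without replicate 3 of the T cells and to 0.11 without replicate 2 of the RNA (-0.40 to 0.11 over the libraries left out). Kcnq1 changed to -0.0085 with the replicate block and to -0.79 without replicate 1 of the T cells (-0.79 to 0.45). Of 377 values for 35 single results, 332 kept direction and side of the threshold. The causes were not tested. At the largest inputs 37 of 92 members were too low to be tested, and depth was not varied apart from input.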
